A study of Homo sapiens with 14 samples.

Results

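Immune checkpoint genes encode the receptors and ligands through which other cells restrain T cells, natural killer cells and macrophages, and 10 of them were followed here in KLF4 ChIP-seq peak lists. They were PDCD1, CTLA4, CD274, PDCD1LG2, CD276, VTCN1, NECTIN2, PVR, CD47 and LGALS9, chosen by name among 20033 protein-coding genes and 62663 annotated genes in all. A KLF4 peak was assigned to a gene when its summit, the position of highest signal, lay in the window from 10 kb upstream of the start of the gene to 2 kb past its end. The gene and its window came from the GENCODE 44 annotation of GRCh38, and the rule itself uses no measured value, although the genes were picked with earlier results of these data known.

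The lists come from BEAS-2B, an established line of immortalised human bronchial epithelial cells, and each condition has 1 KLF4 library. WT control and Nrf2 KO control cells were untreated, while WT As3+ and Nrf2 KO As3+ cells received 1 µM arsenite (As3+) for 6 h. Nrf2 KO cells were derived with CRISPR-Cas9 guides directed at exon 2 of NFE2L2, the gene of the transcription factor Nrf2. Both arms were colonies that had been through this procedure, sorted by western blot according to whether Nrf2 was still made (WT) or not (Nrf2 KO), and whether either arm is a single clone is not stated in the sources used here. The question the design puts is where KLF4 sits on chromatin before and after As3+, with and without Nrf2.

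With no replicate, no difference between conditions could be tested, and every interval given covers counting error only. A peak list holds no expression, so neither the cell type nor the loss of Nrf2 could be checked in it. The WT control list held 751 peaks, WT As3+ 29870, Nrf2 KO control 76545 and Nrf2 KO As3+ 130, so there were 2 short and 2 long lists and all counts below move with these totals. The longest list is that of the untreated Nrf2 KO cells, and since nothing in the lists checks which cells a library came from, each value below belongs to the library labelled with that condition. The depth also differed as far as the peaks show it. The lowest local background was 1.90 fragments in WT control, 0.757 in WT As3+, 0.491 in Nrf2 KO control and 1.64 in Nrf2 KO As3+, and the weakest peak listed at that background had a fold enrichment of 4.82, 3.41, 3.35 and 4.17, respectively. Fold enrichment, as the authors deposited it, compares the library with its local background at the summit, and a site below these levels may be occupied without being listed. In windows of the same kind, NFE2L2 had 0, 3, 5 and 0 peaks and KLF4 itself 0, 2, 4 and 0 peaks in WT control, WT As3+, Nrf2 KO control and Nrf2 KO As3+, the order kept throughout.

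Checkpoint receptors such as PD-1 sit on immune cells and pass an inhibitory signal when they meet a ligand on a neighbouring cell. Epithelial cells mostly provide the ligands, of which PD-L1 is induced by interferon gamma through JAK and STAT proteins and IRF1. KLF4 is a zinc finger transcription factor that recognises GC-rich CACCC elements and takes part in epithelial differentiation and pluripotency.

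Of the sequences around the checkpoint summits, those that hold a KLF word are shown here because they carry the letters that the antibody's target is known to recognise. A KLF word was CCACACCC or CCACGCCC on either strand, searched within 200 bp around each summit, and it is in capitals in the following stretches, which run 5′ to 3′ along the strand of the gene on GRCh38.
NECTIN2 upstream, chr19:44845997-44846117, plus strand: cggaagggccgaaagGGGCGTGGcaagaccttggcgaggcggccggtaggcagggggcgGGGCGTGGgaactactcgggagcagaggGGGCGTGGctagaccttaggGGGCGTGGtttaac
NECTIN2 intron 1, chr19:44856946-44856975, plus strand: gctcacctgggCCACGCCCcgtgaacatcc
PVR intron 1, chr19:44647077-44647106, plus strand: tccccctccccCCACACCCcacggtccacc
PVR 3′-UTR, chr19:44662757-44662786, plus strand: accacacagaaGGGTGTGGgccaccagaga
CD47 upstream, chr3:108091596-108091625, minus strand: cgccctgccctGGGCGTGGcggcctcgggc
The NECTIN2 stretch reaches from 300 to 180 bp upstream of the canonical TSS and holds 4 KLF words, which begin 285, 241, 213 and 193 bp upstream. The PVR intron 1 word lies in the 200 bp window of a Nrf2 KO control summit but just outside the listed interval. All 4 NECTIN2 words fell inside the WT As3+ and the Nrf2 KO control peak over this TSS. Only those beginning 285 and 241 bp upstream lay wholly in the 200 bp window of the WT As3+ summit. None lay in the 200 bp window of the Nrf2 KO control summit. As many words were found in 0.124% of all WT As3+ peaks (37 of 29870) and in 0.106% of all Nrf2 KO control peaks (81 of 76545), a comparison made after the words had been seen. These shares are not adjusted for the length of the intervals searched. The NECTIN2 intervals were 518 and 909 bp wide, against medians of 290 and 267 bp in the 2 lists. A match of letters is a description and not a measured site.

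The number of checkpoint genes with a KLF4 peak was 1 of 10 in WT control, 7 in WT As3+, 7 in Nrf2 KO control and 1 in Nrf2 KO As3+. The share of all protein-coding genes with a peak in the same kind of window was 2.51%, 66.5%, 81% and 0.439%. The checkpoint genes were therefore near the background in the lists with many peaks, and the same gene, PVR, made up the count in both short lists. With WT As3+ and Nrf2 KO control reduced to their strongest 751 peaks, the size of the WT control list, no checkpoint gene had a peak in either, against 3.49% and 4.27% of protein-coding genes.

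**Figure D1:**
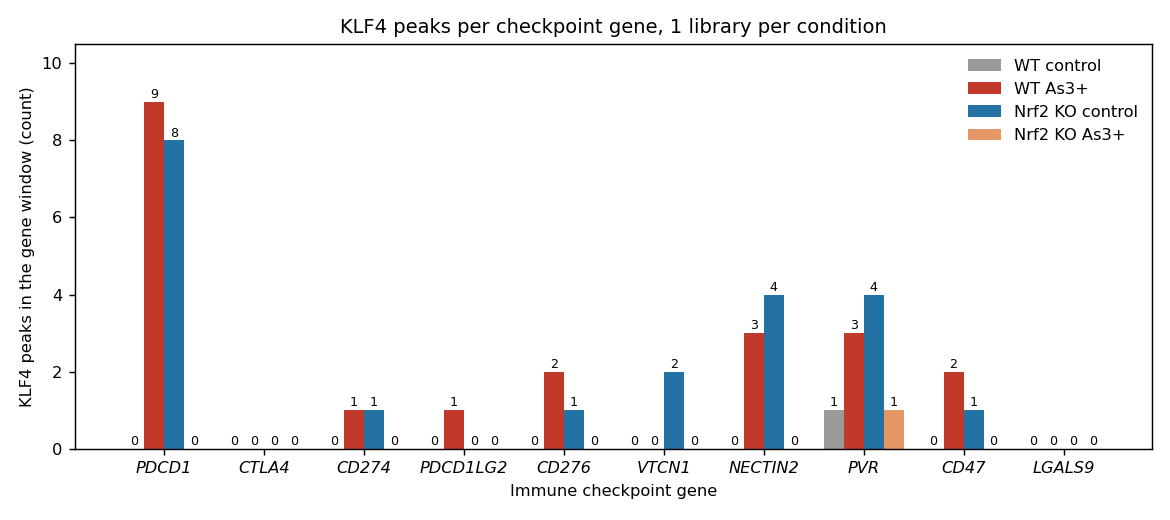
KLF4 peaks (count, vertical axis) in the window of each of the 10 checkpoint genes (horizontal axis), with 1 bar per library and the count above it. PDCD1 had the most peaks, 9 in WT As3+ and 8 in Nrf2 KO control, CTLA4 and LGALS9 had none, and PVR alone had a peak in WT control and Nrf2 KO As3+.

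Within 2 kb of the canonical TSS, a peak was listed for 0, 6, 7 and 0 checkpoint genes, compared with 0.794%, 52.5%, 67.5% and 0.195% of protein-coding genes. The 6 genes of WT As3+ were PDCD1, CD274, CD276, NECTIN2, PVR and CD47, and Nrf2 KO control added VTCN1. The windows held 1, 21, 21 and 1 peaks in all. Per 100 kb of window this was 4.55 peaks in WT As3+ against 1.93 for protein-coding windows together, and 4.55 in Nrf2 KO control against 4.50. PDCD1 alone held 9 of the 21 peaks of WT As3+ and 8 of the 21 peaks of Nrf2 KO control.

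When overlapping intervals were joined, the 44 peaks formed 31 sites in 8 genes. WT As3+ and Nrf2 KO control shared 10 sites in 6 genes, WT As3+ alone had 9 sites and Nrf2 KO control alone had 11. The remaining site, in the 3′-UTR of PVR, was listed in WT control, WT As3+ and Nrf2 KO As3+. Of the 21 WT As3+ peaks, 12 overlapped a Nrf2 KO control peak by at least 1 bp (57.1%, Clopper-Pearson interval 34.0 to 78.2), and the share was 55.6% over the whole WT As3+ list. Of the 21 Nrf2 KO control peaks, 10 overlapped a WT As3+ peak (47.6%, 25.7 to 70.2), whereas the share over that whole list was 21.7%.

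Of the whole WT As3+ list, 2.15% of peaks overlapped a WT control peak. Of the whole Nrf2 KO control list, 0.0810% overlapped a Nrf2 KO As3+ peak. A peak without a counterpart in a short list was therefore the rule and not particular to checkpoint genes. The folds of sites missing from a short list were set beside the fold at which that list still held a peak. Of the 20 WT As3+ peaks without a WT control counterpart, 14 exceeded the fold of 4.82 at which WT control still listed a peak in its lowest background. In the same way, 14 of the 21 Nrf2 KO control peaks exceeded the fold of 4.17 at which Nrf2 KO As3+ still listed a peak in its lowest background. Fold adds a constant to the fragments and to the background before dividing. It therefore does not carry over to a library of another depth. These counts do not tell how many of the sites the shorter list could have held. The fold that any of these sites had in the library of the shorter list is not known. Whether a site was absent there or only not listed was not tested.

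**Figure D2:**
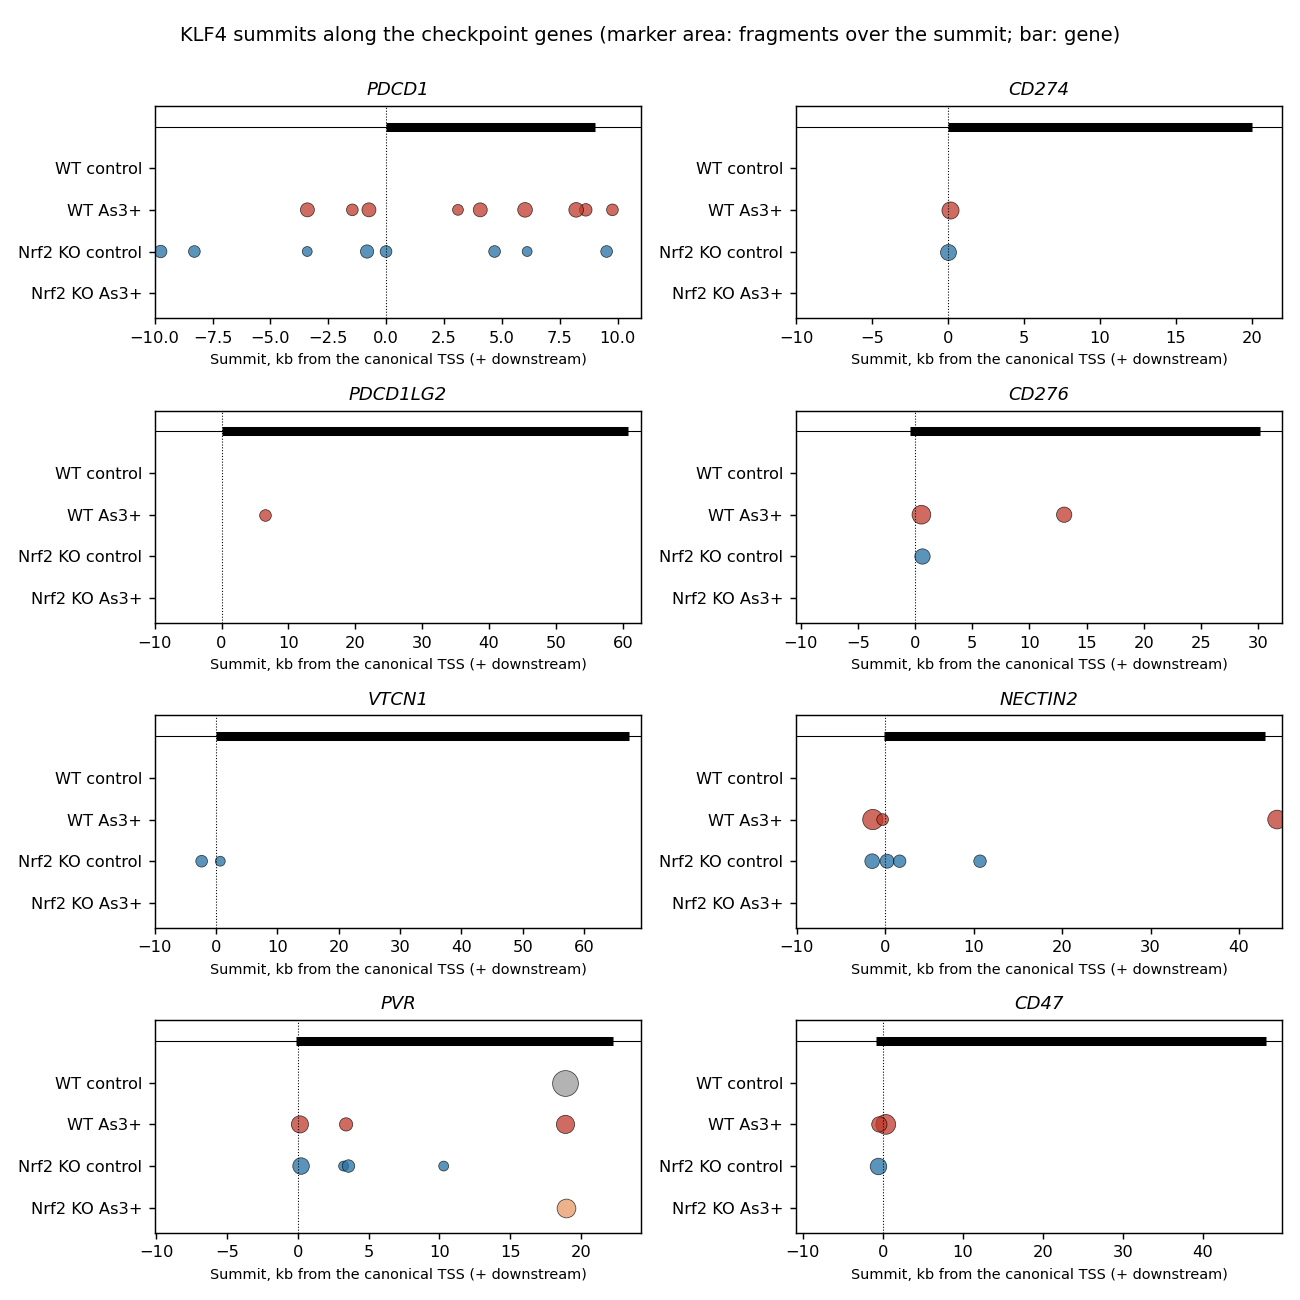
KLF4 summits (horizontal axis, kb from the canonical TSS, positive downstream) along the 8 checkpoint genes with a peak, with 1 row of markers per library (vertical axis), the gene as a bar and the marker area in proportion to the fragments over the summit. CD274, CD276, NECTIN2, PVR, CD47 and PDCD1 have a site within 2 kb of the TSS in WT As3+ and Nrf2 KO control. PVR also has sites further into the gene, and the other sites of PDCD1 are spread along its window.

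Among the receptors, PDCD1, which encodes PD-1, had 0, 9, 8 and 0 peaks (ENSG00000188389.11, chr2:241849884-241858894, minus strand, TSS at 241858894). In WT As3+, 207 protein-coding genes (1.03%) had 9 or more peaks, and in Nrf2 KO control 2479 (12.4%) had 8 or more. In WT As3+ the highest PDCD1 peak lay at chr2:241850541-241850797 in the 3′-UTR part of exon 5, with a fold of 6.11 and 11 fragments over the summit (95% Poisson interval 5.49 to 19.7). Closest to the TSS, 747 bp upstream, a WT As3+ peak at chr2:241859463-241859792 had a fold of 5.39 and 10 fragments (4.80 to 18.4).

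The Nrf2 KO control peak at chr2:241859572-241860326 overlapped the latter, with its summit 828 bp upstream, a fold of 5.72 and 9 fragments (4.12 to 17.1). It was the highest of the 8 PDCD1 peaks in that library. Another Nrf2 KO control peak, at chr2:241858812-241859011, had its summit 9 bp from the TSS with 7 fragments, and WT As3+ listed none there. Only 3 of the 14 PDCD1 sites were shared by the 2 libraries, namely the upstream site, a coding site in exon 2 and a site with summits 3405 and 3412 bp upstream. The Nrf2 KO control peaks 8285 and 9742 bp upstream of PDCD1 lay closer to the TSS of RTP5, at 2550 and 1093 bp. The highest WT As3+ peak, 8201 bp downstream of the PDCD1 TSS, lay 6313 bp from that of ENSG00000235151. That TSS was also the nearest for the WT As3+ peaks 8616 and 9767 bp downstream and the Nrf2 KO control peak 9516 bp downstream.

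All PDCD1 peaks were low in fragments, from 5 to 11, and 3 of the 9 peaks of WT As3+ and none of the 8 of Nrf2 KO control reached a −log10 q of 5. The density in the PDCD1 window was 42.8 and 38.1 peaks per 100 kb in WT As3+ and Nrf2 KO control. The 250 kb on either side held 7.40 and 14 peaks per 100 kb, and the genome as a whole 0.967 and 2.48, so the flanks of PDCD1 were themselves rich in peaks. Upstream of PDCD1 a KLF word lay 221 bp from the TSS, outside every peak listed, and it is shown for comparison with the NECTIN2 stretch.
PDCD1 upstream, chr2:241859097-241859126, minus strand: cccacggggtaGGGCGTGGgggccacgggc

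CTLA4, the receptor that competes with CD28 for the B7 ligands CD80 and CD86, had no peak in any of the 4 lists (ENSG00000163599.18, chr2:203853888-203873965, plus strand). The 250 kb on either side of its window held 5 peaks in WT As3+ and 4 in Nrf2 KO control. This is 1.00 and 0.800 peaks per 100 kb, against 7.40 and 14 in the flanks of PDCD1 on the same chromosome.

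Of the B7 family ligands, CD274 and CD276 carried a peak at the TSS in WT As3+ and Nrf2 KO control and neither had a peak in WT control or Nrf2 KO As3+. CD274, which encodes PD-L1, the main ligand of PD-1, lies at chr9:5450503-5470566 on the plus strand (ENSG00000120217.14, TSS at 5450542). Its WT As3+ peak at chr9:5450473-5450730 had its summit in intron 1, 93 bp from the TSS, and a fold of 5.86 and 15 fragments (8.40 to 24.7). Its Nrf2 KO control peak at chr9:5450340-5450698 had its summit 21 bp upstream, with a fold of 6.59 and 13 fragments (6.92 to 22.2).

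The fragments of both libraries over CD274 lie within each other's intervals. They are not adjusted for depth, and the local background was 1.73 fragments in WT As3+ and 1.12 in Nrf2 KO control. The CD274 peaks named above were the only ones in its window, and the 250 kb on either side held 3 peaks in WT As3+ and 6 in Nrf2 KO control. The 150 bases before the gene, all inside the Nrf2 KO control peak, are shown because this single site is what the lists hold for PD-L1, with the 8 CpG steps in capitals.
CD274 upstream, chr9:5450353-5450502, plus strand: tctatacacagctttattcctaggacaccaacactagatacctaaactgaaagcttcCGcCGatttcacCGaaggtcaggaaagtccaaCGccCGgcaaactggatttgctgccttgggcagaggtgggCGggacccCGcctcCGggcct
The stretch held none of the KLF words, nor those of the wider set CCCCACCC, CCACACCC, CCACGCCC and CCCCGCCC, in which the first and last were added.

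CD276 encodes B7-H3, a ligand found on many epithelial tumours (ENSG00000103855.18, chr15:73683966-73714514, plus strand, TSS at 73684383). Its WT As3+ peak at chr15:73683938-73685206 was 1269 bp wide, the widest of that library in these genes, with the summit in intron 1, a fold of 8.09 and 18 fragments (10.7 to 28.4). The Nrf2 KO control peak at chr15:73684386-73685221 had a fold of 6.94 and 12 fragments (6.20 to 21.0), with its summit 57 bp from the former.

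The CD276 promoter site thus had among the highest folds of the checkpoint genes in both libraries, with 6.26% of the WT As3+ list and 7.79% of the Nrf2 KO control list ahead of it by −log10 p. A further WT As3+ peak at chr15:73697306-73697595, 13044 bp into the gene, had a fold of 4.44 and 12 fragments. No Nrf2 KO control peak overlapped it.

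PDCD1LG2 and VTCN1 each had peaks in a single library. PDCD1LG2, which encodes PD-L2, the other ligand of PD-1, lies beyond CD274 on chromosome 9 (ENSG00000197646.8, chr9:5510531-5571282, plus strand). Its only peak, in WT As3+, lay in intron 1 at chr9:5516832-5517123, 6466 bp from the TSS, with a fold of 4.55 and 7 fragments (2.81 to 14.4). The gene record ENSG00000286162 also covers this summit, so the peak is not assigned to PDCD1LG2 by position alone.

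VTCN1 encodes B7-H4 (ENSG00000134258.18, chr1:117143587-117210960, minus strand, TSS at 117210927) and had 2 peaks in Nrf2 KO control and none elsewhere. The peak at chr1:117210111-117210395, 673 bp into the gene, had a fold of 3.94 and 5 fragments (1.62 to 11.7). The other, at chr1:117213158-117213375, lay 2368 bp upstream with a fold of 5.08 and 7 fragments (2.81 to 14.4). These peaks of PDCD1LG2 and VTCN1 were low, and none had a −log10 q of 5 or more.

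The nectin ligands bind TIGIT, CD96, PVRIG and the activating receptor CD226 on T and natural killer cells. NECTIN2 (CD112, ENSG00000130202.10) and PVR (CD155, ENSG00000073008.16) both lie on the plus strand of chromosome 19, and both had peaks around the TSS in WT As3+ and Nrf2 KO control. NECTIN2 had 0, 3, 4 and 0 peaks and PVR 1, 3, 4 and 1.

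At NECTIN2 (chr19:44846175-44889223, TSS at 44846297) the highest WT As3+ peak lay upstream at chr19:44844571-44845044, with its summit 1417 bp from the TSS, a fold of 6.80 and 21 fragments (13.0 to 32.1). This was the largest number of fragments among the WT As3+ peaks of the checkpoint genes. Nrf2 KO control had a peak at the same place, chr19:44844628-44845083, with a fold of 5.00 and 11 fragments (5.49 to 19.7). The 101 bases around the WT As3+ summit held no KLF word but a single word of the wider set, in capitals here.
NECTIN2 upstream summit, chr19:44844830-44844930, plus strand: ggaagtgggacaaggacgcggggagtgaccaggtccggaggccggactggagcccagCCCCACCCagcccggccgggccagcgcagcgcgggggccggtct

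At the NECTIN2 TSS the order of the libraries was the other way round. The WT As3+ peak at chr19:44845860-44846377, which covers the 4 KLF words, was the weakest peak of that library in these genes, with a fold of 3.15, 7 fragments (2.81 to 14.4) and 99.1% of the list ahead of it by −log10 p. The Nrf2 KO control peak at chr19:44845707-44846615 had its summit in the 5′-UTR, 195 bp past the start, and a fold of 6.32 and 10 fragments (4.80 to 18.4). The intervals of the fragments overlap, and the local background was 1.54 fragments in WT As3+ and 0.742 in Nrf2 KO control.

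Nrf2 KO control had 2 further NECTIN2 peaks in intron 1, 1616 and 10710 bp from the TSS, with folds of 3.79 and 5.54, and the latter holds the intron 1 word shown above. The last WT As3+ peak of the window, chr19:44890535-44890741, lay past the end of NECTIN2, with a fold of 5.61 and 18 fragments. It is over the start of the TOMM40 record and 253 bp from the TSS of the long non-coding RNA ENSG00000267282, so which gene it belongs to cannot be told from its position.

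PVR (chr19:44643798-44666162, TSS at 44643910) had a peak over its TSS in WT As3+ and Nrf2 KO control. The WT As3+ peak at chr19:44643863-44644397 had its summit in the 5′-UTR, 147 bp downstream, with a fold of 6.30 and 15 fragments (8.40 to 24.7). The Nrf2 KO control peak at chr19:44643829-44644486 had its summit 227 bp downstream, with a fold of 7.06 and 14 fragments (7.65 to 23.5), the highest fold of that library in these genes. A weaker site by exon 2 was listed in both, with 9 fragments in WT As3+ and 5 in Nrf2 KO control. The other 2 Nrf2 KO control peaks of PVR, in exon 2 and in intron 4, had 8 and 5 fragments, and the latter lay 478 bp from the start of MIR4531.

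The PVR site in the 3′-UTR was the only site of a checkpoint gene in WT control and in Nrf2 KO As3+. In WT control it spanned chr19:44662594-44663027, with a fold of 7.18 and 34 fragments (23.5 to 47.5) over a background of 3.87. In WT As3+ it had a fold of 6.59 and 17 fragments (9.90 to 27.2) over a background of 1.73. In Nrf2 KO As3+ it had a fold of 4.48 and 18 fragments (10.7 to 28.4) over a background of 3.24.

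The 3 summits fell within 77 bp of each other, and by −log10 p the site ranked 58 of 751 in WT control and 71 of 130 in Nrf2 KO As3+. No Nrf2 KO control peak overlapped it. Fold adds 1 to the fragments and to the background before dividing, so it does not carry over to a library of another depth. How many fragments this site would have in Nrf2 KO control, which lists peaks from 4 fragments upwards, was therefore not estimated. The background of Nrf2 KO control at this site is not known, and whether the site was absent or only not listed was not tested. The KLF word in this site, shown above, lay within 200 bp windows of the WT control and WT As3+ summits and outside that of Nrf2 KO As3+, whose interval does contain it. The same stretch is covered by the gene records of CEACAM19 and CEACAM16-AS1 and has its summits from 1261 to 1338 bp from the TSS of ENSG00000279095, so it is not assigned to PVR by position alone.

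**Figure D3:**
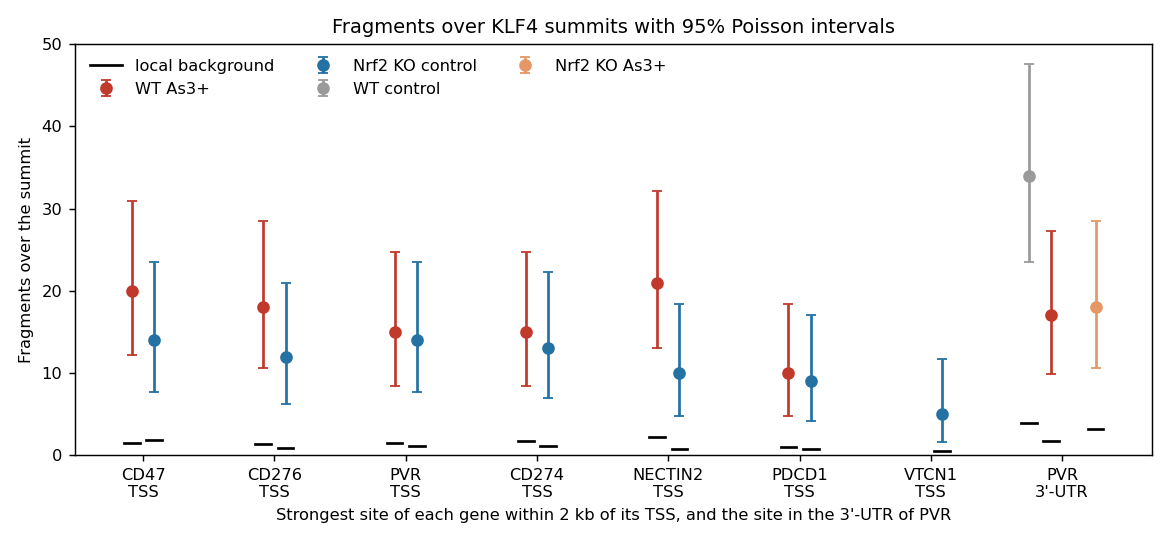
Fragments over the summit (vertical axis) with 95% Poisson intervals, counting error only, for the strongest peak within 2 kb of the TSS of 7 checkpoint genes and for the PVR 3′-UTR site (horizontal axis), coloured by library, with the local background as a black dash. The intervals of WT As3+ and Nrf2 KO control overlap at each gene listed in both, and in NECTIN2 the pair of points stands for different sites. Fragments are not adjusted for depth, so this overlap does not compare occupancy.

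CD47, the ligand of SIRPA that restrains phagocytosis by macrophages, had 0, 2, 1 and 0 peaks (ENSG00000196776.17, chr3:108043091-108091862, minus strand, TSS at 108091031). The WT As3+ peak at chr3:108090505-108090971, with its summit in intron 1, 397 bp from the TSS, had a fold of 8.27 and 20 fragments (12.2 to 30.9), the highest fold of all 44 peaks. A lower WT As3+ peak, 406 bp upstream, had a fold of 5.04 and 12 fragments (6.20 to 21.0). In Nrf2 KO control a single interval of 1359 bp, chr3:108090358-108091716, spanned both, with its summit 605 bp upstream, a fold of 5.22 and 14 fragments (7.65 to 23.5).

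CD47 thus had the same stretch listed in both libraries but with the summit at another place, 1002 bp apart for the highest points. The 101 bases around the WT As3+ summit are shown because they carry the highest fold without any of the words searched. They are rich in pyrimidines on the strand of the gene and hold 3 CpG steps, in capitals.
CD47 intron 1, chr3:108090584-108090684, minus strand: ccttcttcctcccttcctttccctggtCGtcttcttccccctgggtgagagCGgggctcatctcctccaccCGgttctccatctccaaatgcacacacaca

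LGALS9 encodes galectin-9, a glycan-binding ligand of TIM-3, and had no peak in any list (ENSG00000168961.17, chr17:27629798-27649560, plus strand). LGALS9 has near copies with which reads may be shared, and how the authors placed such reads is not stated. LGALS9B had no peak either, and LGALS9C had 2 peaks in Nrf2 KO control and none in the other libraries.

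The checkpoint peaks were of ordinary height for their lists. The median fold was 5.39 in WT As3+, from 3.15 to 8.27, against 4.72 over the whole list, and 5.08 in Nrf2 KO control, from 3.43 to 7.06, against 4.69. A median of 11 and 8 fragments lay over the summits, against 10 and 7 over the lists. In WT As3+, 10 of 21 peaks had a −log10 q of 5 or more, as had 31.9% of the list, and in Nrf2 KO control 5 of 21, as had 21.1%.

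KLF words were found under few of these summits. The word lay within the 200 bp window of 1 of 1, 2 of 21, 3 of 21 and 0 of 1 peaks, and over the whole lists the share was 26.5%, 10.3%, 9.26% and 14.6%. Around the TSS of all protein-coding genes it was 6.00%. An AP-1 word (TGAGTCA or TGACTCA) lay under 1 WT As3+ peak and no other, against 4.32% of that list. A GC box (CCCCGCCCC), which overlaps the wider KLF set, lay under 1 peak each of WT As3+ and Nrf2 KO control. Over these lists the GC box share was 7.79% and 4.61%, and around the TSS of all protein-coding genes 17.9%. The median GC content of the windows was 63.5% in WT As3+, against 64.5% over that list. In Nrf2 KO control it was higher than over the list, 67.0% against 61.5%.

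Peaks at the TSS went with CpG-rich promoters. RefSeq promoters of 300 bases (GRCh38.p14) were matched for 9 of the 10 genes, PDCD1LG2 being the exception. Of these, CD274, CD276, NECTIN2, PVR and CD47 were CpG-rich, with a GC content over 50% and an observed to expected CpG ratio over 0.6, and each of these 5 had a peak within 2 kb of the TSS in WT As3+ and in Nrf2 KO control. The ratio was 0.910 for CD274, 0.764 for CD276, 0.888 for NECTIN2, 0.795 for PVR and 1.01 for CD47. Among the other 4, with ratios from 0.104 for LGALS9 to 0.328 for CTLA4, PDCD1 had a peak near the TSS in both libraries and VTCN1 in Nrf2 KO control.

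The same pattern held over the genome, so it is not particular to checkpoint genes. Of 9822 protein-coding genes with a CpG-rich promoter, 70.1% had a peak near the TSS in WT As3+ and 84.5% in Nrf2 KO control, whereas of 5523 other genes 25.7% and 39.4% had one. KLF words lay in 2 of the 9 checkpoint promoters, PDCD1 and NECTIN2, and in 9.75% of all 15345 promoters. With 3 words in its 300 bases, NECTIN2 was among 35 promoters (0.228%) with as many.

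The other genes of the checkpoint pathways differed widely in how many had a peak. Among 15 partner receptors the number with a peak was 1, 4, 10 and 1, and among 15 partner ligands it was 0, 8, 9 and 0. All 18 genes of interferon gamma signalling and PD-L1 regulation had a peak in WT As3+ and in Nrf2 KO control, 3 had one in WT control and 1 in Nrf2 KO As3+. Of 19 genes of antigen presentation by MHC class I, 1, 17, 17 and 0 had a peak. The share of all protein-coding genes was 2.51%, 66.5%, 81% and 0.439%, as above, and the median number of peaks per gene in WT As3+ was 0, 1, 2 and 2 in the 4 lists, 1.5 in the checkpoint genes and 1 over all protein-coding genes.

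**Figure D4:**
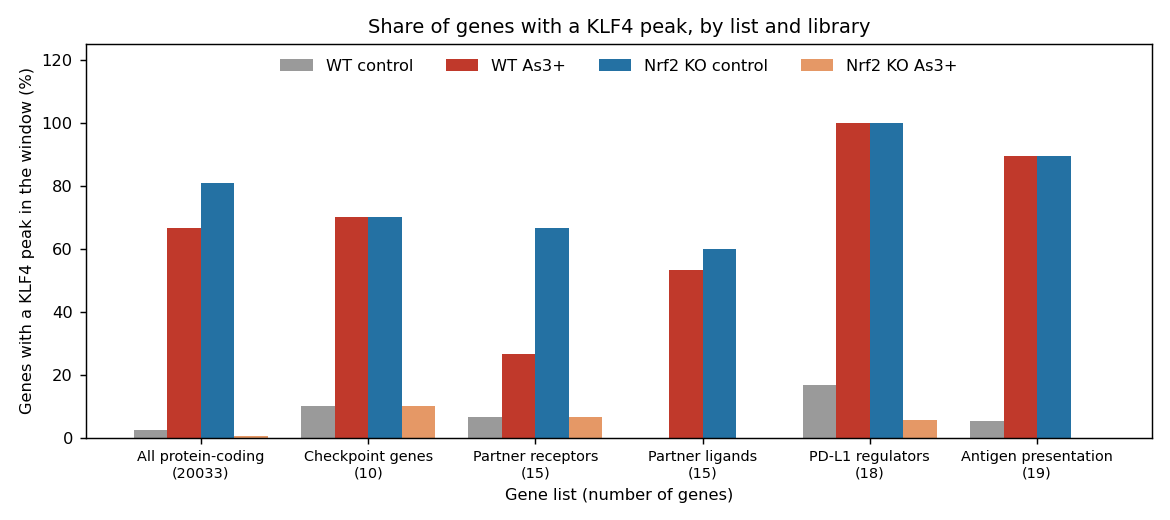
Percent of genes with a KLF4 peak in the window (vertical axis) for all protein-coding genes, the 10 checkpoint genes and 4 lists of related genes (horizontal axis, number of genes in parentheses), with 1 bar per library. In WT As3+ the checkpoint genes, 7 of 10, lie close to the 66.5% of all protein-coding genes, below the regulators of PD-L1 (18 of 18) and above the partner receptors (4 of 15).

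Of the 15 partner receptors, 0 had a peak within 2 kb of the TSS in WT As3+ and 6 in Nrf2 KO control, beside 52.5% and 67.5% of all protein-coding genes. The highest in WT As3+ were VSIR, which encodes VISTA, with a fold of 7.61 and 33 fragments, LAG3, a receptor for MHC class II, with 7.48 and 18, and TMIGD2, a receptor of HHLA2, with 6.78 and 11. The VSIR site, in intron 1 6423 to 6541 bp from the TSS, was like the PVR 3′-UTR site in its pattern. It had 36 fragments in WT control and 31 in Nrf2 KO As3+, and no Nrf2 KO control peak overlapped it.

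Of the partner ligands, LGALS3, another galectin, had a fold of 8.81 and 19 fragments 97 bp from its TSS in WT As3+. It was followed by TNFRSF14, the ligand of BTLA, with 7.80 and 17, 9104 bp from its TSS. Next was NECTIN3, which also binds NECTIN2 and PVR, with 6.95 and 18, 358 bp from its TSS. CD80, CD86, ICOSLG, FGL1 and VSIG4 had no peak in any list.

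Among the regulators of PD-L1, the gene of the growth factor receptor EGFR had the highest fold in WT As3+, 21.4 with 41 fragments, 758 bp from its TSS. Sites at its start were listed in all 4 libraries, with the highest fold at 7.04, 21.4, 26.4 and 8.80. IRF1, the transcription factor that drives CD274 after interferon gamma, followed with a fold of 8.31 and 23 fragments, 6041 bp from its TSS. Next was the kinase gene JAK1 with 8.05 and 21, 100545 bp from its TSS. WT control also listed 2 sites in the window of IRF1, with 34 and 24 fragments, and 1 in that of the transcription factor gene MYC, with 19.

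Of the antigen presentation genes, NLRC5, the transactivator of MHC class I genes, had the highest fold in WT As3+, 9.14 with 31 fragments, at a site 72036 bp from its TSS. A peak with a fold of 6.89 and 25 fragments lay near the start of the neighbouring genes TAP1, a peptide transporter, and PSMB9, a proteasome subunit, and it fell in the window of PSMB8 as well, so it was counted for all 3. The chaperone gene CALR was the only gene of this list with a WT control peak, 4744 bp upstream of its TSS with 28 fragments.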

How the data were processed

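KLF4 ChIP-seq peak lists were used from 4 of the 14 samples, 1 library per condition. The histone mark and input libraries were not analysed here. The authors sequenced reads of 75 nt, aligned them to GRCh38 with BWA and called peaks in each library. The submitters' processing notes name bcl2fastq 2.17, and the peak caller is not given in the sources used here. The deposited lists give, at each summit, a fold (a ratio over the local background), a −log10 p, a −log10 q and a score. This score equals −log10 q multiplied by 10 without its decimals, and the authors listed peaks from a −log10 q of about 1.00.

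Fragment numbers (n) and backgrounds (λ) of all peaks were solved for from fold = (n + 1)/(λ + 1) and p as an upper Poisson tail. The misfit of −log10 p was at most 0.000405. The median was 25, 10, 7 and 19 fragments in WT control, WT As3+, Nrf2 KO control and Nrf2 KO As3+, which sets the precision of a single peak. Read totals were not used here. Genes came from GENCODE 44 (Ensembl 110), and places in a gene follow its canonical transcript. Windows began 10000 bp before the gene record and ended 2000 bp past it. Intervals at 95% are exact Poisson (fragments) or Clopper-Pearson (shares). Alternatives were a −log10 q or a fold of at least 5, equal list sizes, other windows, other overlap rules and other motif windows. The solution for fragments, the counting of peaks in windows, the overlap rules and the word search were tested on simulated data, and the other steps were not. No test between conditions was run.

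The members and the 4 related gene lists were chosen with earlier results of these data known. All 10 members were named. Of each related list the 3 genes with the highest −log10 p in WT As3+ were named, with every gene that had a peak in WT control or Nrf2 KO As3+. Other genes were named where their TSS lay in a member's window within 2 kb of a peak, and NFE2L2, KLF4, LGALS9B and LGALS9C by their number of peaks. CEACAM19, CEACAM16-AS1 and TOMM40, RTP5, ENSG00000235151, ENSG00000286162, and the partner ligands without a peak, were named after their values were seen. Software was pysam 0.24.0, pandas 2.3.3, scipy 1.17.1, matplotlib 3.10.9, numpy 2.4.6 and Python 3.11.15.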

Additional observations from a re-analysis of the deposited data

Results flagged for a closer look

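As3+ and control lists differed in opposite directions in WT and Nrf2 KO cells, and with 1 library per condition the difference was not tested. Nothing in the lists checks the genotype or treatment labels, and the directions rest on the labels as given. As3+ minus control, the number of checkpoint genes with a KLF4 peak was 6 in WT and -6 in Nrf2 KO cells, and the number of peaks in their windows was 20 and -20. For single genes the differences in peaks were 9 and -8 for PDCD1, 1 and -1 for CD274, 2 and -1 for CD276, 3 and -4 for NECTIN2, 2 and -3 for PVR, and 2 and -1 for CD47. The lists as a whole moved the same way, from 751 to 29870 peaks in WT and from 76545 to 130 in Nrf2 KO cells, and the share of protein-coding genes with a peak from 2.51% to 66.5% and from 81% to 0.439%.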

How the results depend on the processing

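The count of checkpoint genes in WT control and WT As3+ changed order with list length. With each list at no more than its 751 strongest peaks, WT As3+ and Nrf2 KO control had 0 checkpoint genes, 0 peaks and 3.49% and 4.27% of protein-coding genes, while WT control had 1 gene and 2.51%, so the share of protein-coding genes stayed higher in WT As3+. With a −log10 q of 5 or more, the share of protein-coding genes was 1.48% in WT control, 38.2% in WT As3+, 51.0% in Nrf2 KO control and 0.195% in Nrf2 KO As3+, and the peaks of checkpoint genes were 10 in WT As3+, 5 in Nrf2 KO control and 0, in 0 genes, in Nrf2 KO As3+. At a fold of at least 5, the share was 0.784% in WT control, 43.4% in WT As3+ and 0.155% in Nrf2 KO As3+, with 12 peaks in Nrf2 KO control and 0, in 0 genes, in Nrf2 KO As3+. Within 2 kb of the TSS, WT control and Nrf2 KO As3+ had 0 genes and 0 peaks (0.794% and 0.195% of protein-coding genes), and WT As3+ and Nrf2 KO control 9 and 10 peaks. WT As3+ peaks with a −log10 q of at least 5 overlapped Nrf2 KO control in 7 cases. KLF words were found under 5 WT As3+ and 7 Nrf2 KO control peaks with the wider set, under 1 Nrf2 KO control peak within 100 bp, and under 1 Nrf2 KO As3+ peak over its whole interval. For the main results 72 other values stayed within 1.5 times, as did 240 counts of single genes, while 40 of the latter moved. Many of the 240 were 0 in the main setting and stayed at 0. A stricter filter or a narrower window could not raise them, so they say little about stability. Measuring the upstream limit from the canonical TSS, an alternative chosen after seeing the data, moved none of the main results or counts of single genes. No paired analysis was possible because each condition has 1 library and no replicate could be left out. No peak under 10 fragments was listed in WT control or Nrf2 KO As3+. Their lowest backgrounds, 1.90 and 1.64 fragments, were above those of WT As3+ and Nrf2 KO control, 0.757 and 0.491.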
